A study of Danio rerio with 6 samples.

Results

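Endocrine pancreas and gut hormone genes were examined in dscaml1-/- and wild-type zebrafish larvae. The genes were chosen by symbol, as a list of 9 hormone and regulator genes: ins, gcga, gcgb, iapp, ghrl, gast, insl5a, insl5b and pdx1. They are called the hormone genes below, pdx1 included, although pdx1 encodes a transcription factor. Of the 9 symbols, 7 matched a row in the table of 31901 genes. iapp did not match by symbol, but the row named LO017820.1 is described there as islet amyloid polypeptide, and it is given below as an eighth gene. gast matched no row and is not analysed here.

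The mutants carried the vt1 allele of dscaml1 on both chromosomes. vt1 is a frameshift allele, and the gene encodes a neuronal adhesion protein. Their wild-type siblings came from the same heterozygous parents, in a mixed AB and TL background, untreated and at a stage before sexual differentiation. Each of the 3 libraries per genotype came from a pool of 6 to 11 larvae of 3.5 to 4 dpf. The labels give the tissue as the entire animal, whereas by the methods only the front portion of a larva went into RNA, which bears on organs that lie along the gut. Reads per library ranged from 18725190 to 20476688 in mutants and from 21863982 to 23516860 in wild type. dscaml1 had 399.6, 336 and 355 normalized counts in mutant replicates 1, 2 and 3, against 333, 395 and 375 in wild type. A frameshift need not lower the transcript, so its level is no check of the labels. The 2 libraries numbered replicate 2 separated from the remaining 4 along principal component 1 (70.9% of the variance), so the hormone gene results are also given without them.

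Islet cells and enteroendocrine cells are hormone-secreting cells scattered in the pancreas and along the gut lining. Beta cells make insulin and islet amyloid polypeptide, and alpha cells make glucagon. Insulin lowers blood glucose and glucagon raises it, through receptors in liver and other tissues. Enteroendocrine cells sense nutrients and release peptides that act on appetite, gut movement and digestive secretion. pdx1 encodes a homeodomain transcription factor needed for pancreas formation and for insulin expression in beta cells. In zebrafish the first insulin-expressing cells form a single principal islet that is present before the stage sampled here. Because the libraries come from many tissues, fewer cells of a type and less RNA per cell cannot be told apart.

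The values are normalized counts, which are reads per gene divided by a size factor for each library. They are not corrected for transcript length, so levels are compared between libraries and not between genes. The genotype difference was fitted by limma, on the scale log2(normalized count + 1) and beside a term for replicate 2, for the 21302 genes whose mean reached 5. Of the 7 genes matched by symbol, 6 reached that mean, and insl5b did not. LO017820.1 also reached it.

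ins, gcga and gcgb had lower counts in mutants in every pair of libraries of equal replicate number, but none passed the test. Neither labels nor methods name a shared clutch or day behind these pairs. For gcgb, mutant replicate 1 (94.9 normalized counts) lay above wild-type replicate 3 (78.0). ins (ENSDARG00000035350, chromosome 5 of GRCz11 from 37854685 to 37857696) encodes preproinsulin. It had 150.1, 26.8 and 109.7 normalized counts in mutant replicates 1, 2 and 3, against 258.5, 81.3 and 167 in wild-type replicates 1, 2 and 3. Replicate 2 was the lowest library in each genotype, and the highest mutant library lay above the lowest wild-type library. Mean levels were 95.5 ± 62.8 for mutants against 169 ± 88.6 for wild type (SD, n = 3 pools each). The log2 fold change was -0.98, with a standard error of 0.26 and a 95% interval from -1.58 to -0.38. The adjusted p over all genes was 0.179 from limma. Within pairs, ins in mutants was 0.581, 0.330 and 0.655 times the wild-type level in replicates 1, 2 and 3.

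gcga and gcgb are the duplicated glucagon genes of teleosts, and their precursor proteins are cut into glucagon and glucagon-like peptides. gcga (ENSDARG00000079296, chromosome 22 from 11617520 to 11626018) had 193, 37.7 and 274.5 normalized counts in mutants, against 325, 69.2 and 287 in wild type. Mutant replicate 3 stood close to wild-type replicate 3, and the other pairs differed more. The log2 fold change was -0.56, with a standard error of 0.19 and a 95% interval from -0.99 to -0.13 (limma adjusted p = 0.257). gcgb (ENSDARG00000040907, chromosome 9 from 51265283 to 51271597) had 94.9, 20.4 and 67.0 normalized counts in mutants, against 157, 50.2 and 78.0 in wild type. The log2 fold change was -0.73, with a standard error of 0.31 and a 95% interval from -1.45 to -0.01 (limma adjusted p = 0.351). Replicate 3 again showed the smallest difference within a pair, with gcga at 0.957 and gcgb at 0.858 times the wild-type level.

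Of the 6 tested hormone genes, 3 had an unadjusted limma p below 0.05, at 0.00561 for ins, 0.0178 for gcga and 0.0482 for gcgb. Among all genes tested, 7.9% were lower and 6.1% higher at that unadjusted level. These p-values depend on the replicate 2 term, which takes out the difference of the replicate 2 libraries. With no term for replicate 2, at the same fold changes, the unadjusted limma p was 0.219 for ins, 0.558 for gcga and 0.308 for gcgb. A lower value in all 3 pairs was likewise seen for these 3 of the 6 tested hormone genes and for 20.6% of all genes tested. At an adjusted p under 0.05 limma called 0 of the 6, where 0.0986% of all genes were called, and edgeR called 0 as well, where it called 0.0845% of genes. With the replicate number as a block in limma 0 of the 6 were called, where 0.221% of genes were. DESeq2, run on reads recovered from the normalized counts and given the replicate 2 term, called ins alone (log2 fold change -0.99, adjusted p = 0.0323). It gave no adjusted p for ghrl and insl5a, so these could not be called. DESeq2 called 3.19% of the 18488 genes to which it gave an adjusted p. The adjusted p of ins over all alternatives ran from 0.0323 to 1. An exact two-sided permutation test, whose smallest possible p is 0.1 for 3 against 3, gave 0.4 for ins, 0.5 for gcga and 0.5 for gcgb.

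Without replicate 2 of both genotypes, ins had 150.1 and 109.7 normalized counts in mutants, against 258.5 and 167 in wild type, and the groups no longer overlapped. The same held for gcga but not for gcgb. Both mutant libraries lay below both wild-type libraries for 2 of the 6 tested hormone genes and for 21.3% of all genes tested. The log2 fold changes in that fit were -0.69 for ins, -0.41 for gcga and -0.47 for gcgb, with adjusted p of 0.398, 0.515 and 0.671 from limma. With all 6 libraries, 0 of the 7 genes matched by symbol had groups that did not overlap, where mutants were below wild type without overlap for 4.55% of genes and above for 5.07%.

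**Figure D1:**
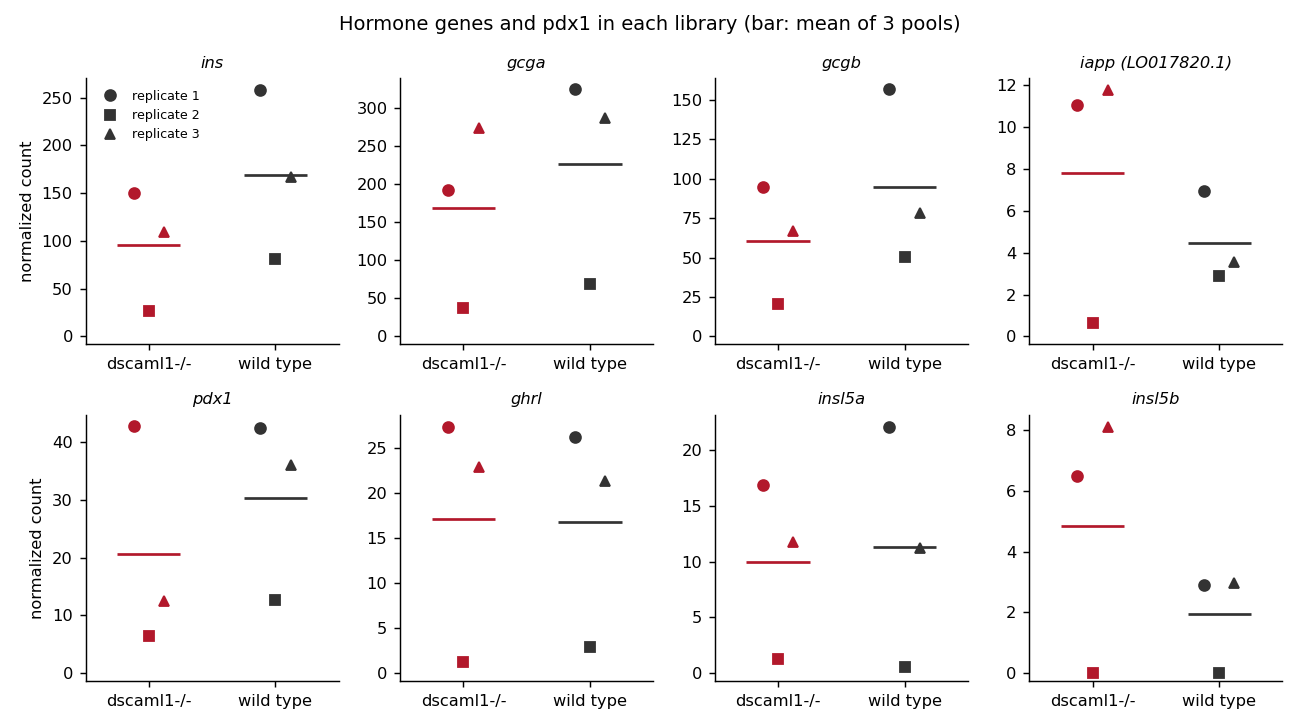
Normalized count (linear vertical axes, not corrected for transcript length) of 8 genes in each library, with dscaml1-/- pools in red on the left and wild-type pools in dark grey on the right of each panel. Symbols mark the replicate number and bars the mean of 3 pools. The square, replicate 2, is the lowest point of its genotype in every panel.

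pdx1 and the amyloid polypeptide row were less steady between pools. pdx1 (ENSDARG00000002779, chromosome 24 from 21684189 to 21686706) had 42.9, 6.39 and 12.5 normalized counts in mutants, against 42.4, 12.7 and 36.1 in wild type. The replicate 1 libraries were nearly equal, at a ratio of 1.01 of mutant to wild type, and mutant replicate 3 stood at 0.347 times its wild-type counterpart. The log2 fold change was -0.78, with a standard error of 0.43 and a 95% interval from -1.77 to 0.21 (limma adjusted p = 0.467), and -0.72 without replicate 2 of both genotypes. It was -0.31 without mutant replicate 3 and -1.28 without mutant replicate 1. LO017820.1 (ENSDARG00000105976), the islet amyloid polypeptide row, rested on few reads, 17, 1 and 16 in mutants and 12, 5 and 6 in wild type. Its normalized counts were 11.0, 0.639 and 11.8 in mutants, against 6.97, 2.88 and 3.55 in wild type. Mutants were higher in replicates 1 and 3 and lower in replicate 2, and the log2 fold change was 0.28 with a standard error of 0.57 (limma adjusted p = 0.870), against 1.04 without replicate 2 of both genotypes and -0.17 without wild-type replicate 3. Beta cells make amyloid polypeptide together with insulin, and whether the 2 genes differ in their response was not tested.

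None of the gut hormone genes passed the test, and all were counted on few reads. ghrl (ENSDARG00000054239, chromosome 6 from 40437987 to 40439615) encodes ghrelin, which promotes feeding and growth hormone release in mammals. It had 27.3, 1.28 and 22.8 normalized counts in mutants, against 26.1, 2.88 and 21.3 in wild type. Replicates 1 and 3 lay close together in both genotypes, and replicate 2 held 2 reads in the mutant and 5 in the wild-type library. The log2 fold change was -0.20 (95% interval from -0.96 to 0.55, limma adjusted p = 0.827), and 0.08 without replicate 2 of both genotypes.

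insl5a and insl5b encode insulin-like peptide 5, a relaxin-family peptide that enteroendocrine cells of the distal gut release in mammals. insl5a (ENSDARG00000070966, chromosome 6 from 30703828 to 30708123) had 16.9, 1.28 and 11.8 normalized counts in mutants, against 22.1, 0.577 and 11.2 in wild type. No direction held across pairs, and the log2 fold change was 0.08 (95% interval from -0.89 to 1.04, limma adjusted p = 0.956), against -0.15 without replicate 2 of both genotypes. insl5b (ENSDARG00000069294, chromosome 2 from 10127762 to 10129061) had 10, 0 and 11 reads in mutants, against 5, 0 and 5 in wild type. The value of 0 reads in both replicate 2 libraries allows up to 3 reads, or 1.92 normalized counts in the mutant and 1.73 in the wild-type library, for counting error only. In the fit with no filter on low values, insl5b had a log2 fold change of 0.71 (SE 0.36, limma adjusted p = 0.486). Without replicate 2 of both genotypes it was 1.07 (limma adjusted p = 0.477), and both mutant libraries lay above both wild-type libraries. How reads shared between gcga and gcgb, or between insl5a and insl5b, were assigned is not given in the sources used here.

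**Figure D2:**
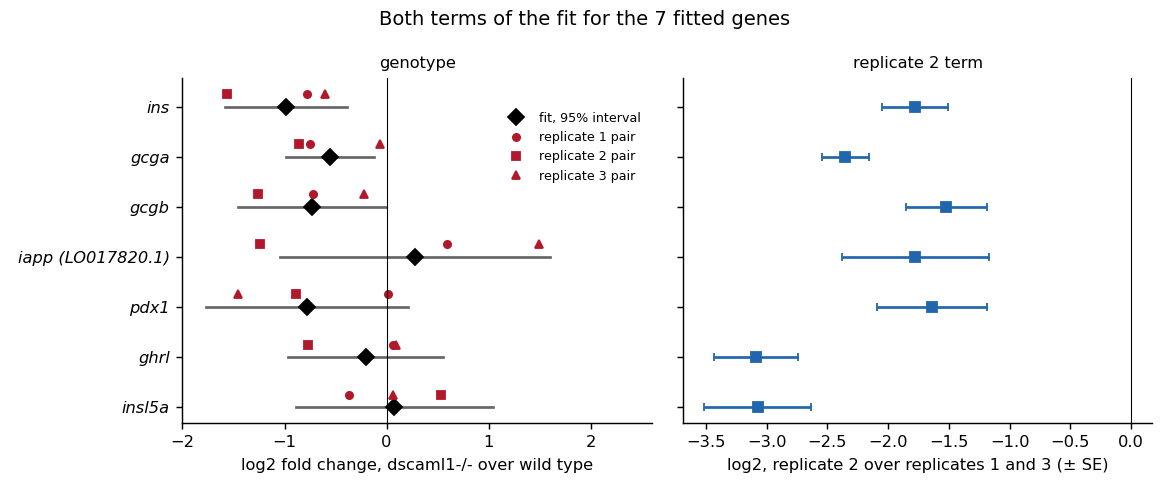
Left, log2 fold change of dscaml1-/- over wild type for the 7 fitted genes (black diamonds with 95% intervals from limma) and the log2 ratio within each pair of equal replicate number (red symbols). Right, log2 difference of replicate 2 from replicates 1 and 3 (blue squares with standard errors). In this fit with the replicate 2 term, the intervals of ins, gcga and gcgb lie below 0 before adjustment over all genes. The replicate 2 values of all 7 genes lie between -3.09 and -1.52.

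The difference between replicate 2 and the other libraries was larger for every tested hormone gene than the difference between genotypes. In the same fit, the log2 difference of replicate 2 from replicates 1 and 3 was -1.78 for ins, -2.35 for gcga, -1.52 for gcgb and -1.64 for pdx1. It was -3.09 for ghrl, -3.07 for insl5a and -1.78 for LO017820.1. These values describe the libraries and carry no test, since replicate 2 was singled out from the data and the labels name no batch. All 6 tested hormone genes, pdx1 included, were lower by 2-fold or more, where 10.8% of all genes were, and the median over all genes was -0.00. Both replicate 2 libraries were the lowest of the 6 for 5 of these 6 genes, against 26.1% of all genes. pdx1 was the exception, since mutant replicate 3 (12.5 normalized counts) lay below wild-type replicate 2 (12.7).

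The size of the replicate 2 difference could be read in each genotype. ins in mutants averaged 129.9 normalized counts in replicates 1 and 3, 4.84 times its level in replicate 2, and in wild type it averaged 213, 2.62 times its level in replicate 2. For gcgb the factor was 3.96 in mutants and 2.34 in wild type. For pdx1 it was 4.34 in mutants and 3.09 in wild type. It was larger in mutants for ins, gcga, gcgb, pdx1 and ghrl, and smaller in mutants for insl5a. For LO017820.1 it was 17.9 in mutants, with 1 read in mutant replicate 2, and 1.82 in wild type. Each factor divides by the value of 1 library, the replicate 2 library of that genotype. The replicate 2 libraries held 2 reads of ghrl in mutants and 5 in wild type, and 2 and 1 reads of insl5a. Whether the genotypes differ in this factor was not tested.

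Ratios between hormone genes within a library were compared over the pools, as reads not corrected for length. ins was 0.778, 0.712 and 0.399 times gcga in mutants, against 0.796, 1.18 and 0.584 times in wild type. The mean ratio came to 0.630 ± 0.202 over mutant pools and 0.852 ± 0.300 over wild-type pools (SD, n = 3 each), so the spreads of the pools overlapped. The ratio of ins to gcgb was steadier, at 1.58, 1.31 and 1.64 in mutants and 1.65, 1.62 and 2.14 in wild type. Both ratios were lower in mutants in every pair of equal replicate number, by little in replicate 1. Whether the genotypes differ in these ratios was not tested. The ratio of gcga to gcgb moved with the replicate number, being 2.03, 1.84 and 4.10 in mutants and 2.07, 1.38 and 3.67 in wild type. Replicate 3 held the highest share of gcga in both genotypes.

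Other islet hormones were described with a list of 10 symbols, of which 7 were tested. None passed an adjusted p of 0.05 with limma. The median log2 fold change of the list was 0.27, with 6 of the 7 above 0, against a median of 0.01 over all genes tested and -0.64 over the 6 hormone genes above. It was 0.54 when either replicate 2 library was left out. Such a fit keeps the replicate 2 term, so its genotype difference comes from replicates 1 and 3 alone, here and below. sst2, a somatostatin gene of the delta-cell hormone family, had 239, 30.7 and 198 normalized counts in mutants, against 279, 63.4 and 219 in wild type. It was the single gene of this list with a negative value, at -0.46 (SE 0.21, limma adjusted p = 0.388), and its replicate 2 difference of -2.37 was close to that of gcga. Leaving out either replicate 2 library gave -0.18 for sst2. sst1.1, which is also expressed in the brain, had 253, 90.7 and 249 normalized counts in mutants, against 182, 107 and 153 in wild type (log2 fold change 0.31, limma adjusted p = 0.517), with 0.58 when a replicate 2 library and 0.16 when wild-type replicate 3 was left out. ucn3l, a urocortin expressed in beta cells and in the brain, had 12.3, 8.30 and 19.9 normalized counts in mutants, against 3.49, 5.19 and 6.50 in wild type. All 3 mutant values of ucn3l exceeded the highest wild-type value, with a log2 fold change of 1.21 (limma adjusted p = 0.265). insb, the second insulin gene of zebrafish, stayed under the mean of 5 with 7.80, 0 and 3.68 normalized counts in mutants, against 4.65, 3.46 and 3.55 in wild type.

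A list of other gut hormone and peptide genes had 17 tested of 22 symbols. It also holds trpa1b, an ion channel gene, and tph1b, a serotonin synthesis enzyme gene. The median log2 fold change of the list was 0.34, with 16 of the 17 above 0 and none past an adjusted p of 0.05 from limma. This median was 0.50 when either replicate 2 library was left out. Many of the 17 genes are also expressed in neurons, and pyya and pyyb stand in both hormone lists. pyya, a peptide YY gene, had 370.4, 289 and 587 normalized counts in mutants, against 289, 198 and 239 in wild type (log2 fold change 0.73, standard error 0.19, limma adjusted p = 0.178). galn, which encodes galanin, had 108, 153 and 196 normalized counts in mutants, against 94.1, 83.0 and 69.2 in wild type. Its log2 fold change was 0.85 (limma adjusted p = 0.203). nts (neurotensin) and penka (proenkephalin a) had log2 fold changes of 0.84 and 0.52, with adjusted p of 0.220 and 0.195 from limma. The pattern of ghrl and insl5a across replicates was also seen in gip, mlnl and pyyb, which encode the gut hormones gastric inhibitory polypeptide, a motilin-like peptide and peptide YY b. gip, mlnl and pyyb were chosen after their values were seen. gip had 63.0, 0 and 81.0 normalized counts in mutants, against 31.4, 1.15 and 57.9 in wild type. The replicate 2 difference was -5.26 for gip, -3.68 for mlnl and -3.67 for pyyb.

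Islet transcription factors, 40 genes tested of 47 symbols, include the regulators that specify and maintain endocrine cells. Their median log2 fold change was -0.13, with 26 of 40 below 0, and none passed an adjusted p of 0.05 from limma. The largest negative value belonged to hnf1ba, a homeodomain factor of pancreas, kidney and liver, with 155, 11.5 and 96.4 normalized counts in mutants, against 211, 81.3 and 268 in wild type. Its log2 fold change was -1.55 (SE 0.37, limma adjusted p = 0.158), or -0.96 when either replicate 2 library was left out. hnf1bb, gata6 and gata4, regulators of endodermal organs, had log2 fold changes of -0.78, -0.81 and -1.22 with adjusted p of 0.175, 0.145 and 0.261 from limma. For gata4 it was -1.88 when either replicate 2 library was left out. Replicate 2 was lower by 2-fold or more for 6 of the 40 factors, with a list median of 0.16. Both replicate 2 libraries were the highest of the 6 for 16 of the 40, against 24.6% of all genes. neurod1, which is expressed in islets and widely in neurons, averaged 999.5 ± 182 normalized counts over mutant pools, against 1013 ± 510 over wild-type pools (SD, n = 3 each), and was chosen after its values were seen.

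Genes that process and store prohormones, 24 tested, had a median log2 fold change of 0.23, with 19 of the 24 above 0. None passed an adjusted p of 0.05 from limma, and 10 were higher at an unadjusted p under 0.05, where 6.1% of all genes were. Many granule genes are also expressed in neurons, and neuron markers were higher at that level for 5 of 14, with a median of 0.22. Their part in the result was not tested. The list median was 0.39 when either replicate 2 library was left out. slc30a8, which encodes a zinc transporter that loads insulin granules in mammals, was the gene of this list with the largest negative value. It had 74.7, 130.3 and 82.4 normalized counts in mutants, against 196, 202 and 145 in wild type, so the groups did not overlap (log2 fold change -0.94, standard error 0.18, limma adjusted p = 0.125). vgf and scg2b, which encode granins of neurons and endocrine cells, had log2 fold changes of 0.92 and 0.64 (adjusted p 0.158 and 0.183 from limma). ptprn2, a granule membrane protein gene, had one of 0.38 (limma adjusted p = 0.182).

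Glucose sensing, hormone receptor and target enzyme genes held 1 gene that passed the test. pygl, the liver glycogen phosphorylase that glucagon activates, had 891, 662 and 807 normalized counts in mutants, against 1644, 1140.3 and 1481 in wild type. It fell by 0.85 on the log2 scale (SE 0.10, limma adjusted p = 0.0449), and the groups did not overlap. The call was lost whichever library was left out, with limma adjusted p from 0.0616 to 0.177 and changes from -0.88 to -0.80, and with edgeR (adjusted p = 0.0640). It was also lost in limma under TMM scaling (adjusted p = 0.0514), with scaling to total reads (0.0642) and with no term for replicate 2. DESeq2 with no term for replicate 2 lost it too (adjusted p = 0.157). The 7 of 19 alternatives that called pygl included DESeq2 with the replicate 2 term (adjusted p = 7.07e-08) and limma with the replicate block (0.0309). pygl was the single gene called among the 26 target enzymes tested, whose median log2 fold change was -0.26, with 20 of 26 below 0. mlxipl, a glucose-responsive transcription factor with 2 rows in the table, had log2 fold changes of -1.12 and -0.77, and gys2 (liver glycogen synthase) and fbp1b (a gluconeogenic enzyme) had -0.77 and -0.56. For gys2 it was -0.39 when either replicate 2 library was left out. The adjusted p of these 4 rows lay from 0.154 to 0.488 with limma. slc2a2, the glucose transporter of beta cells and liver, had 528, 162 and 467 normalized counts in mutants, against 694, 331 and 818 in wild type (log2 fold change -0.74, limma adjusted p = 0.123). Among the other 9 genes of glucose sensing, the lowest adjusted p was that of slc2a1b, 0.369 from limma.

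Among 23 hormone receptor and adaptor genes the median log2 fold change was 0.03 and none was called. The median was -0.18 when only genes with a mean of at least 20 were kept. Mutants were below wild type without overlap for 5 of the 23, where 4.55% of all genes were. They were above without overlap for 4, where 5.07% of all genes were. The somatostatin receptor gene sstr2a had 26.0, 30.7 and 45.6 normalized counts in mutants, against 72.6, 59.4 and 66.8 in wild type, without overlap (log2 fold change -0.97, limma adjusted p = 0.168). Its relatives sstr1a and sstr1b had log2 fold changes of 0.65 and 0.64 (adjusted p 0.186 and 0.249 from limma), and the mutants were higher without overlap for both. The insulin receptor gene insrb had 574, 427 and 625 normalized counts in mutants, against 638, 621 and 735 in wild type (log2 fold change -0.31, limma adjusted p = 0.328).

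**Figure D3:**
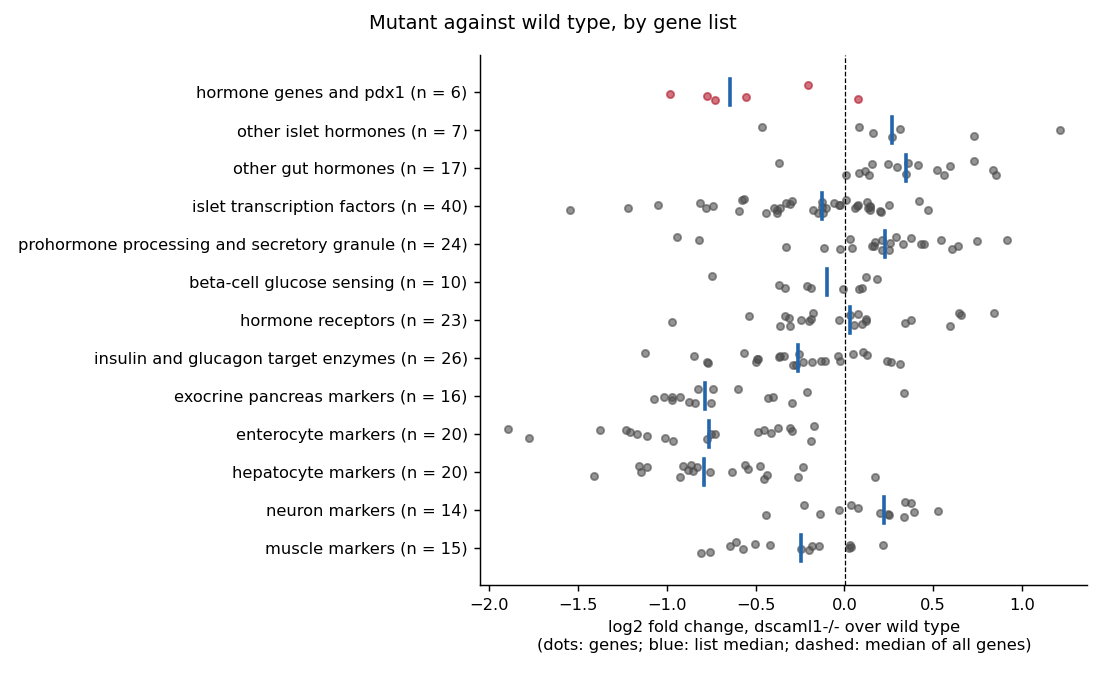
Log2 fold change of dscaml1-/- over wild type for each tested gene of 13 lists (dots), with list medians in blue and the median of all genes as a dashed line. The 6 hormone genes matched by symbol, pdx1 included (red), have a median of -0.64, near the exocrine pancreas, enterocyte and hepatocyte markers. The lists of other islet hormones and other gut hormones have medians of 0.27 and 0.34, and the latter also holds trpa1b and tph1b.

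Marker lists of neighbouring organs had negative medians, and the genes of these lists that passed the test were hepatocyte genes. Exocrine pancreas genes, which encode digestive enzymes, had a median log2 fold change of -0.79, with 15 of 16 below 0 and 0 past an adjusted p of 0.05 from limma. Enterocyte genes had -0.76, with 20 of 20 below 0 and 0 called, but the median within pairs was 0.19, -0.70 and -1.63 in replicates 1, 2 and 3, so that it lay above 0 in replicate 1. Without mutant replicate 3 the enterocyte median was -0.43. Hepatocyte genes had -0.79, with 19 of 20 below 0. Of the 20, 4 passed an adjusted p of 0.05 from limma (apoba, tfa, cp and serpina1), where 0.0986% of all genes did. Leaving out a library raised the limma adjusted p of these 4 above 0.05, to at most 0.174, except that apoba and tfa were still called without mutant replicate 1 (adjusted p = 0.0476). The hepatocyte median was -0.64 when either replicate 2 library was left out. At an unadjusted limma p under 0.05, 16 of 20 hepatocyte, 11 of 16 exocrine and 11 of 20 enterocyte genes were lower, and 0 were higher. Among all genes tested, 7.9% were lower at that level. The summed level of the enterocyte genes was 44421, 5744 and 29177 normalized counts in mutants, against 43078, 7772 and 78709 in wild type, and that of the hepatocyte genes from 73608 to 164068 in mutants, against 144276 to 227077 in wild type. Neuron markers had a median of 0.22, with 10 of 14 above 0, and muscle markers -0.24, or -0.43 without mutant replicate 1. The part of these tissues in the lower counts of ins, gcga, gcgb and pdx1 was not tested. The exocrine median differed between pairs, at -0.24, -0.90 and -1.17 in replicates 1, 2 and 3. In the same order, ins had -0.78, -1.56 and -0.60, and pdx1 had 0.02, -0.89 and -1.46. gcga had -0.75, -0.86 and -0.06, and gcgb had -0.72, -1.26 and -0.22. Among the exocrine markers, cel.1, a bile salt-dependent lipase gene, had a log2 fold change of -1.07 (limma adjusted p = 0.110). Among the enterocyte markers, vil1, which encodes the microvillus protein villin, had -1.89 (limma adjusted p = 0.119).

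Replicate 2 also held lower levels of exocrine pancreas and enterocyte markers in both genotypes. The summed level of the 16 exocrine genes was 159567, 284 and 139568 normalized counts in mutant replicates 1, 2 and 3, against 181980, 571 and 254660 in wild type. All 16 genes were lowest in the replicate 2 libraries of both genotypes. For ctrb1, which encodes a chymotrypsinogen, the values were 17286, 25.5 and 14000.3 in mutants, against 22877, 53.0 and 29882 in wild type. The median replicate 2 difference was -9.06 for exocrine and -5.61 for enterocyte markers, against -2.07 for the 6 hormone genes, -1.07 for hepatocyte, -1.22 for muscle and 0.02 for neuron markers. ins, gcga and gcgb were still counted on 42, 59 and 32 reads in mutant replicate 2 and on 141, 120 and 87 reads in wild-type replicate 2. The part of exocrine and gut tissue in the replicate 2 difference of the hormone genes was not tested.

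**Figure D4:**
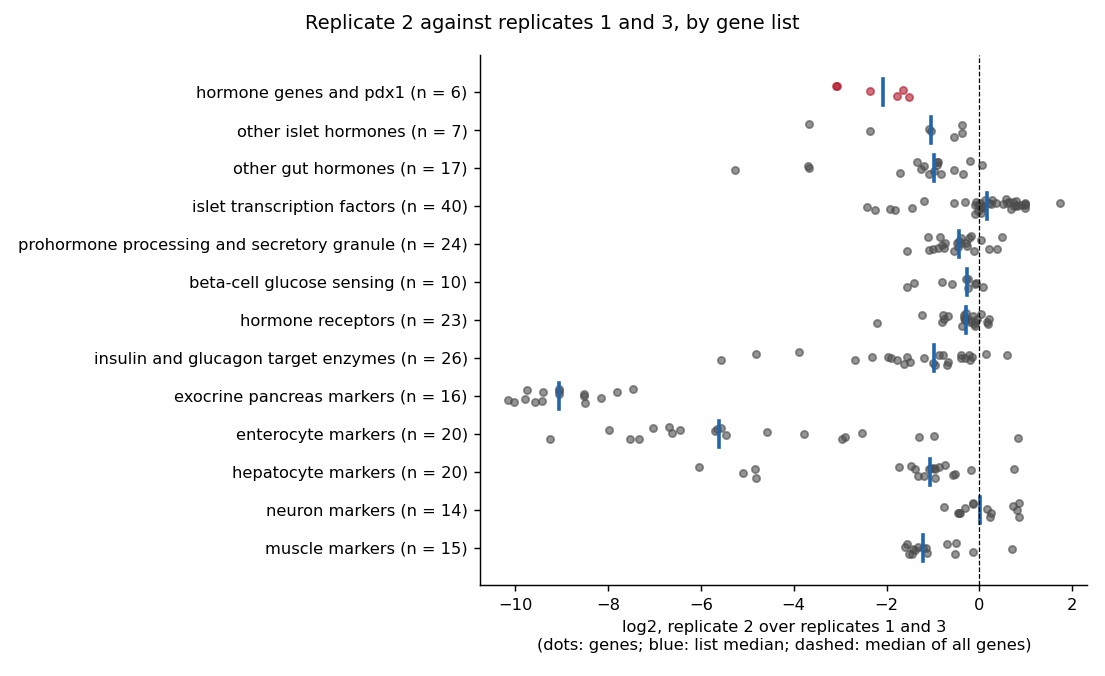
Log2 difference of replicate 2 from replicates 1 and 3 for each tested gene of 13 lists (dots), with list medians in blue and the median of all genes as a dashed line. The 6 hormone genes, pdx1 included (red), lie between -3.09 and -1.52. The exocrine pancreas markers lie between -10.2 and -7.45, and the neuron markers on both sides of 0.

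The genes most like each hormone gene over the 6 libraries, by Pearson's r of log2(normalized count + 1) among genes with a mean of at least 50, mainly repeated the replicate 2 pattern. For ins they were znf704, oxct1b and cdip1 (r from 0.993 to 0.999), and for gcga rpl4, ggctb and myorg (r from 0.996 to 0.997). Pearson's r takes no account of the size of a change. rpl4 had 24991, 22432 and 25759 normalized counts in mutants, against 26266, 23322.5 and 25662 in wild type, a much smaller range than that of gcga. oxct1b, a ketone body metabolism gene, had 949, 224 and 674 normalized counts in mutants, against 1283, 537 and 974 in wild type, so that its order of libraries was that of ins. For gcgb they included znf704 and iffo1a. They were, for ghrl, mut, ca4b and a CELA1 row, for insl5a adgrg1, lgals2a and crp2, and for pdx1 exoc3l4, sytl4 and shc2. For LO017820.1 they were aclyb, cntnap3 and lingo3a. The 6 points fall into the replicate 2 libraries and the rest, and 186 genes had an r over 0.95 with ins and 923 with ghrl, so these values only describe the libraries.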

How the data were processed

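Poly(A) RNA of 6 pools of zebrafish larvae (3 per genotype) was sequenced from strand-specific libraries. The authors deposited a signal per gene, its count after scaling of each library by 1 size factor. The submitters' processing notes name TopHat2, HISAT2, HTSeq and GRCz11, with roles and versions not given in the sources used here. Genotype came from the labels, and the libraries of a genotype are called biological replicates in the methods. P-values thus reflect differences among pools, and in the main fit only those left after the replicate 2 term. Fold changes, p-values and mean values computed by the authors stand in the same table. No result here was computed from them, nor from 3 short tables selected by the authors. The choice of the replicate 2 term, however, goes back to the authors' fold changes. All values (100% to within 0.001 reads) were whole multiples of the value of 1 read, so reads could be recovered. No sample column was left unmapped.

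limma 3.58.1 (R 4.3.3) with a mean-variance trend was fitted to log2(value + 1) for genes with a mean of at least 5, with genotype and a replicate 2 term, leaving 3 residual degrees of freedom. The added 1 draws the ratio of 2 low values towards 0, but fold changes of low genes on this scale may be smaller or larger than those of count tests. ghrl had -0.20, against -0.11 with DESeq2 and -0.0563 with edgeR, each with the replicate 2 term. LO017820.1 went the other way, at 0.28 against 0.39 and 0.62. P-values were adjusted by the Benjamini-Hochberg method over all genes tested, and genes were called at 0.05, or at 0.01 with a 2-fold change. The replicate 2 term follows earlier processing of these data, which took it from the fold changes deposited by the authors. edgeR 4.0.16 and DESeq2 1.42.0 were run on recovered reads. Deviations from the group means correlated between same-numbered libraries (r = 0.651, 0.856 and 0.699 for replicates 1, 2 and 3). Mutant replicate 1 with wild-type replicate 3 (0.500) and mutant replicate 3 with wild-type replicate 1 (0.346) also correlated, and the other unlike pairs were negative. A fit with the replicate number as a block was an alternative. The pairing comes from these correlations, since neither labels nor methods name a shared clutch or day. Deviations sum to 0 within a genotype, so the replicate 2 difference by itself pushes the correlations towards these signs. They therefore cannot show that libraries of equal number share an origin. Steps were tested on simulated data. Other steps used Python 3.11.15, pandas 2.3.3 and matplotlib 3.10.9.

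The hormone genes and all lists were chosen with earlier results of these data known. Named were the hormone genes, dscaml1, genes of each list at an adjusted p under 0.05 and up to 4 with the lowest p, and the 3 genes most like each hormone gene, of which 1 for gcgb is not reported here. Further genes were chosen after their values were seen: gip, mlnl, pyyb and insb were taken from the hormone lists, neurod1 from the transcription factors, and the lower of the mlxipl rows from the target enzymes. trpa1b and tph1b are named only because they encode no peptide hormone. Limits for 0 reads cover counting error only. Promoter and protein sequences were not used here.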

Additional observations from a re-analysis of the deposited data

How the results depend on the processing

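The log2 fold changes of ins, gcga, gcgb and pdx1 stayed negative in all 19 alternatives each, from -1.24 to -0.69 for ins, -0.74 to -0.41 for gcga, -1.09 to -0.47 for gcgb and -1.28 to -0.31 for pdx1. Not all of these could differ. In limma, dropping the replicate 2 term, the replicate block, no filter and a mean of at least 20 keep the main fold change by construction. Leaving out either replicate 2 library or both gives the same fold change. The number of hormone genes called at an adjusted p under 0.05 was 0 except with DESeq2 and the replicate 2 term, where it was 1 (ins), and 0 whichever library was left out. The sign of ghrl turned to 0.0104 with DESeq2 and no term for replicate 2 and to 0.0779 without replicate 2 of both genotypes, and ranged from -0.37 to 0.0779 when each library was left out in turn. That of insl5a turned to -0.20 with DESeq2 and no term for replicate 2, -0.0669 with DESeq2 and the term, -0.11 with edgeR, -0.10 with edgeR and the replicate block, -0.0294 with a pseudocount of 5 and -0.15 without replicate 2 of both genotypes, and ranged from -0.15 to 0.40 with libraries left out. LO017820.1 ranged from -0.17 (without wild-type replicate 3) to 1.04.

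Over all genes, 21 passed 0.05, against 47 with the replicate block, 50 with edgeR and the replicate block, 590 with DESeq2 and the replicate 2 term, 0 with no term for replicate 2, 0 without replicate 2 of both genotypes, and 0 to 12 with libraries left out (12 when mutant replicate 1 was dropped, 3 for wild-type replicate 1 and 0 for each of the others). At 0.01 with a 2-fold change 0 genes passed, against 1 with a pseudocount of 5, 1 with the replicate block in limma and 1 in edgeR, 105 with DESeq2 and 10 with DESeq2 and no term, and 0 with any library left out. At an unadjusted p under 0.05, 1683 genes were lower and 1299 higher with limma. The replicate block changed no call of a hormone gene, with adjusted p of 0.102 for ins, 0.187 for gcga and 0.169 for gcgb. Among the list genes named with a genotype difference, no sign turned. With libraries left out, slc2a1b (-0.47 to -0.18) and insrb (-0.40 to -0.19) moved over 1.5 times. The lowest size came without mutant replicate 1 for slc2a1b and without a replicate 2 library for insrb. The mlxipl row at -0.77 (-1.14 to -0.49) moved over 1.5 times too, as did sst2, sst1.1, hnf1ba, gata4 and gys2, with values given above. DESeq2 with the replicate 2 term also called pyya, hnf1ba, gata6, slc30a8, vgf, scg2b, slc2a2, ctrb1, cel.1 and vil1. vil1 was also called by limma without mutant replicate 1 (adjusted p = 0.0476). The causes of these shifts were not tested. The reads behind ghrl, insl5a, insl5b and LO017820.1 (161, 102, 31 and 57 over the 6 libraries) limit their precision.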
